A study of Homo sapiens with 47 samples.

Results

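The 10 genes described here encode transcription factors that mark lateral plate mesoderm and the limb-forming body wall that grows out of it: *PITX1*, *TBX4*, *ISL1*, *HAND1*, *HAND2*, *FOXF1*, *OSR1*, *PRRX1*, *PRRX2* and *TBX5*. They were picked by name from the 58051 Ensembl genes that the files list, and each symbol was found under a single gene identifier. Their expression was followed through 47 bulk RNA-seq libraries of WA09 (H9) cells, an established human embryonic stem cell (hESC) line. The question was whether late passages or mesenchymal cells expressed mesodermal regulators at the time when sacral *HOX* genes came on.

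Undifferentiated hESCs were sampled at t0. Neuromesodermal progenitor (NMP)-like cells were sampled at 36h, after culture in N2B27 medium without vitamin A that held CHIR-99021 (a WNT pathway agonist), FGF2, AGN193109 (an inverse agonist of retinoic acid receptors) and Y-27632 (a ROCK inhibitor). The same factors were kept on for passages P1 to P10, in cultures of pre-neural progenitors (PNPs) and neural crest (NC) cells. Time points held 3 libraries each, from experiments numbered r1, r2 and r3, apart from P9, which had r1 and r2. At P5 and P8 the cultures were also split by selective detachment with TrypLE into fractions enriched for epithelial cells (EPI, PNPs) and mesenchymal cells (MES, NC cells), with 3 libraries of each. All libraries come from 1 cell line, so the differentiations are repeats of a culture and not of a donor. The fractions are enriched and not pure.

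Lateral plate mesoderm lies beside the somites and kidney-forming mesoderm and gives rise to the heart, the smooth muscle of the gut and the limb buds. *FOXF1*, *HAND1* and *HAND2* are early regulators of this tissue, and *OSR1* is shared by lateral plate and intermediate mesoderm. *ISL1*, *PITX1* and *TBX4* act in the hindlimb field, *TBX5* in the forelimb field and the heart, and *PRRX1* and *PRRX2* in limb and craniofacial mesenchyme. Several of these genes are also used outside mesoderm: *HAND2* in sympathetic neurons, *ISL1* in motor and sensory neurons, and the *PRRX* genes in mesenchyme derived from cranial NC.

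The upstream sequences of *PRRX2* and *HAND2* are given here because *PRRX2* was the member called in the late passages and because *HAND2* shares its upstream region with a divergent transcript. Each line holds the 250 bases before the start of transcription, 5′ to 3′ on the strand of the gene, from RefSeq on GRCh38.p14. Capitals mark every match, on either strand, to 6 motifs: a TATA box read as TATAAA, the box named for its letters CCAAT, a core bound by homeodomain proteins read as TAATTA, a T-box site read as AGGTGTGA, an E-box read as CATCTG, and a GC box read as GGGCGG. No motif matches overlap in these lines.
PRRX2, chr9:129665397-129665646, plus strand: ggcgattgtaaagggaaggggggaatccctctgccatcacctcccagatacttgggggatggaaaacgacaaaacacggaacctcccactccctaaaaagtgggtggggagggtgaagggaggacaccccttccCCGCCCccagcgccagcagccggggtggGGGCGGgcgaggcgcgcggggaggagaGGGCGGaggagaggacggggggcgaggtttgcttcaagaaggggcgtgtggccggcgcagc
HAND2, chr4:173530230-173530479, minus strand: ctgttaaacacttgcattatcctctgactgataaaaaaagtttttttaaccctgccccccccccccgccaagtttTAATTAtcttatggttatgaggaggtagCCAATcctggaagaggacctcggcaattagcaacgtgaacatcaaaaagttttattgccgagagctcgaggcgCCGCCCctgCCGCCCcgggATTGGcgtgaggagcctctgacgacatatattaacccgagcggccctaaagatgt
The *PRRX2* sequence has 66.8% G and C, 17 CpG dinucleotides and 3 GC boxes, the first of which begins 116 bases before the start. It matches none of the other letters searched, which says only that they are not in this window. The *HAND2* sequence has 49.6% G and C and 13 CpG, with 2 GC boxes, 2 CCAAT boxes and 1 TAATTA core that begins 175 bases before the start. Among 34788 promoters of the same length, 42.58% held a GC box, 32.02% a CCAAT box and 4.366% a TAATTA core, with a median of 11 CpG. A RefSeq start of *HAND2-AS1* lies inside this window, on the plus strand, 229 bases from the start of *HAND2*. Upstream sequences of 8 of the 10 members were matched by symbol. Those of *FOXF1* and *OSR1* were not used here.

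The libraries held from 13029491 to 64082859 expected counts, with a median of 47292229. Of the 470 values of the 10 genes, all were whole counts, 89 were 0 and 166 were at or under 3 counts, which was taken as the floor that this depth can show. In bulk RNA, fewer cells of a type and less RNA per cell cannot be told apart. Some libraries stood apart from their group. P10.r1 lay 1.27 and 1.24 (root mean square log2 distance) from P10.r2 and P10.r3, which lay 0.735 from each other, and its nearest library was P7.r2 at 0.457. Next to P10.r1 were P8 EPI r2 at 0.465 and P8.r2 at 0.485, also of another replicate number. P1.r1 was nearest to 36h.r2 at 0.751, P2.r1 to P1.r2 at 0.582, and P3.r1 to P2.r1 at 0.611. Whether these libraries carry the right labels or come from cultures that lagged was not tested, and their values are given under the labels as deposited. From principal components, the paper placed P10.r1 in a group with P5 to P8 and P1.r1 in a group with the 36h libraries. In P3.r1 the paraxial mesoderm genes *TBX6* and *MEOX1* read 117.54 and 47.04 TPM (transcripts scaled for length and depth), against 11.32 and 1.79 TPM or less in the other P3 libraries. The main tested differences at P3 and in the late passages are also given without P3.r1, P10.r1 or P9.r1, of which P3.r1 and P9.r1 were chosen after seeing the data.

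Groups were compared by the quasi-likelihood test of edgeR, blocked on the replicate number, and p-values were adjusted by Benjamini-Hochberg across the whole table. Log2 changes and their SE come from this blocked fit and can differ from ratios of mean normalized counts. A call required an adjusted p under 0.01, a 2-fold change or more, and on average 100 normalized counts or more in the compared libraries. These thresholds are hard to meet for weakly expressed genes. Across the time course from t0 to P10, 3 of the 10 factors were called for any change over time (*OSR1*, *PRRX1* and *PRRX2*), beside 27.4% of the 21750 genes tested. The same 3 were called without replicate 1 of P1, P2, P3 and P10, libraries that stood apart and were left out after seeing the data. Without the minimum mean the count was 8, beside 9590 of the 21750 genes, with *ISL1* (adjusted p = 0.031) and *TBX5* (adjusted p = 0.071) as the exceptions.

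**Figure D1:**
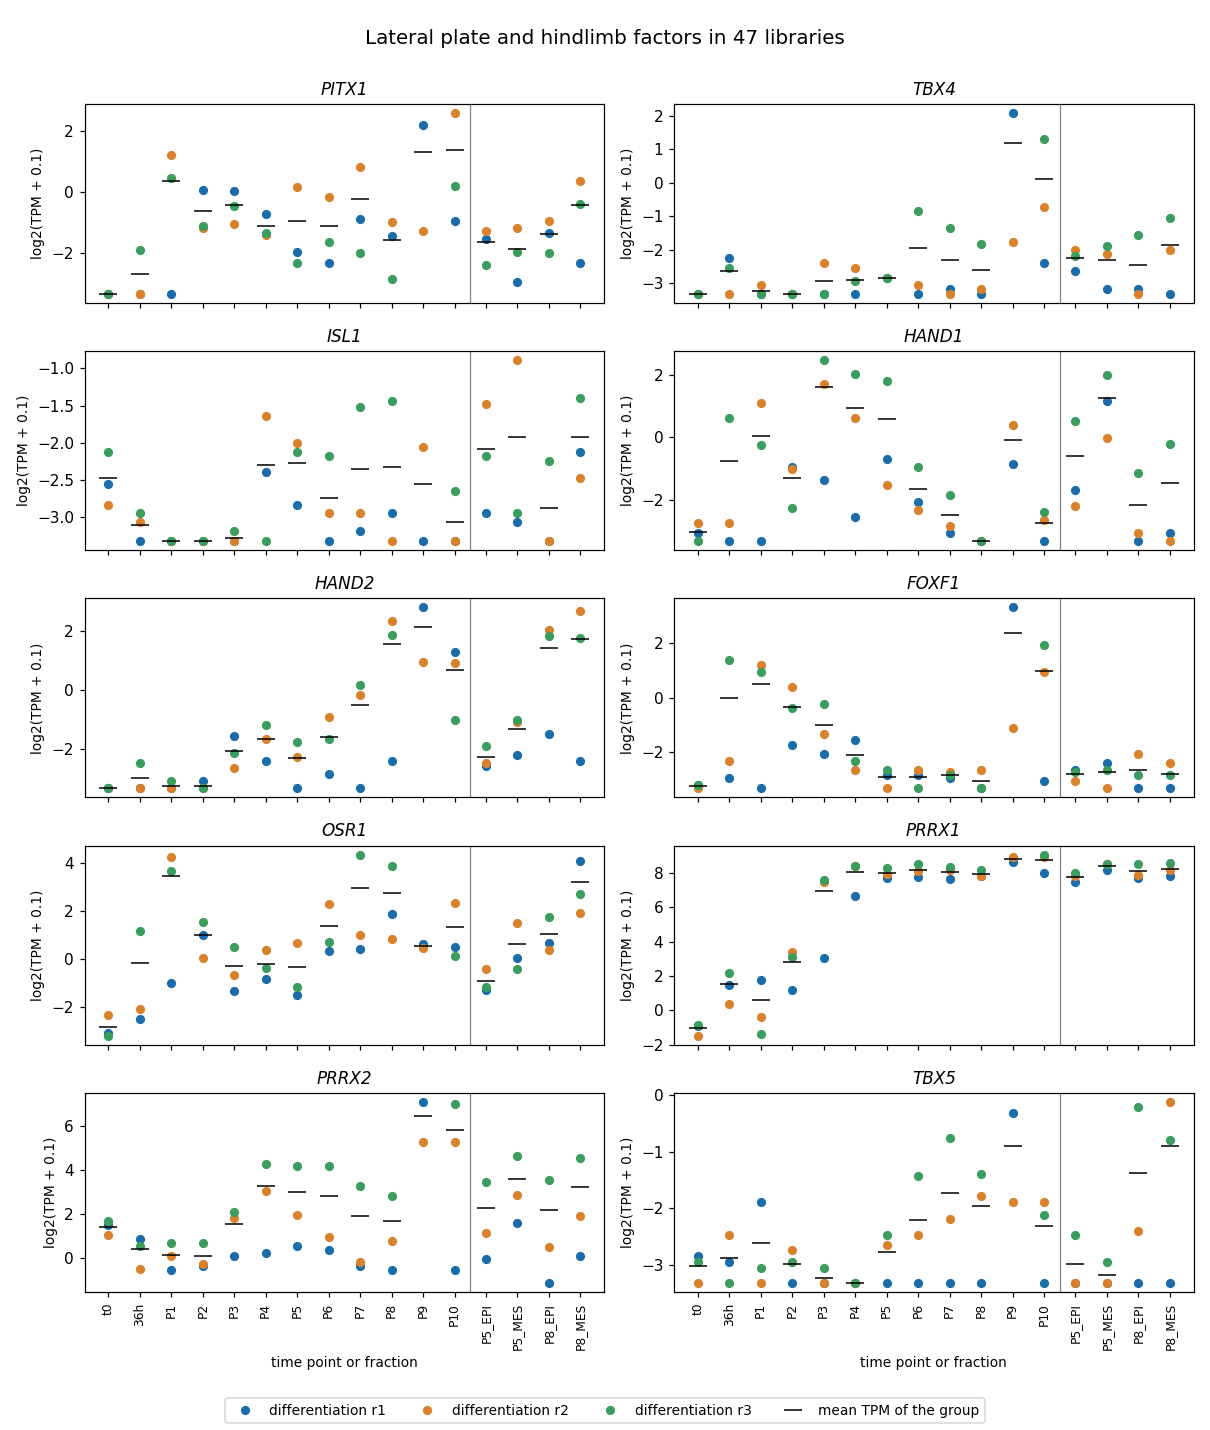
Expression of the 10 factors in all 47 libraries on a log2(TPM + 0.1) axis, with a scale of its own for each gene. Points are single libraries coloured by differentiation, short black lines are the log2 of the group's mean TPM plus 0.1, and the grey line separates whole cultures from fractions. *PRRX1* stays above 100 TPM from P4 on, while *ISL1* and *TBX5* stay under 1 TPM in every library.

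*PRRX1* (ENSG00000116132, chr1:170662728-170739419), a homeobox gene of limb bud and craniofacial mesenchyme, was the most strongly expressed of the 10. It read 0.44, 0.26 and 0.46 TPM at t0 and 2.66, 1.22 and 4.38 TPM at 36h in r1, r2 and r3. At P1 it read 3.28, 0.67 and 0.29 TPM, and at P2 2.16, 10.53 and 8.42 TPM. All 36h libraries lay above all t0 libraries, and P1 spanned both. The 9.22-fold difference of mean normalized counts between 36h and t0 (log2 3.21, SE 0.89) was not called in the main test (adjusted p = 0.018, with 0 of 10 factors called beside 2.71% of all genes). It was called by DESeq2, as the 1 factor, and without replicate 1, and the calls over all genes in those fits are not given here. Of all genes, 5677 had an unadjusted p under 0.05 in that comparison, and 4 of the 10 factors did.

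*PRRX1* rose steeply after P2. At P3 it read 8.19, 174.85 and 191.59 TPM, and at P4 103.19, 345.80 and 339.79 TPM. The r1 libraries read lower than r2 and r3 at both passages, although every P3 library lay above every 36h library. The change from 36h to P3 was 51.1-fold in mean normalized counts and 5.53 on the log2 scale in the blocked fit (SE 0.88, edgeR adjusted p = 6.39e-05). *PRRX1* was the 1 factor called of 10, beside 6.93% of all genes in either direction and 2.88% higher. Without P3.r1 the log2 change was 6.14 (adjusted p = 7.89e-06), an alternative chosen after seeing the data. The NC and mesenchyme gene *TWIST1*, called in the same comparison with and without P3.r1 (log2 7.81 and 8.36), read 4.12, 156.86 and 214.17 TPM at P3, with r1 low as well, and the part of NC cells in the *PRRX1* result was not tested. The *PRRX1* call was lost without replicate 2, without replicate 3 and when only these groups were fitted, with adjusted p between 0.0118 and 0.072. Between P3 and P5 0 of the 10 factors were called, beside 0.0138% of all genes. In that comparison 1 factor, *ISL1*, and 1545 genes had an unadjusted p under 0.05, and DESeq2 called 0 factors and 58 genes.

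Mean *PRRX1* expression was 255 ± 51.9 TPM at P5 and 247 ± 36.6 TPM at P8 (SD, n = 3), which ranked it 608th and 606th among all genes. The difference between P5 and P8 was −0.03 on the log2 scale (SE 0.71), so these data leave room for a change of either sign. At P9 it read 392.92 and 490.74 TPM in r1 and r2, and at P10 256.76, 481.12 and 535.94 TPM. Every P9 and P10 library but P10.r1 lay above all P8 libraries, where the highest was 289.53 TPM. The difference between late passages (mean of P9 and P10) and P8 was 0.94 on the log2 scale (SE 0.66) and was not called (adjusted p = 0.391), and without P10.r1 it was 1.02 (adjusted p = 0.319).

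The rise of *PRRX1* ran beside that of the *HOX10* genes, which the study places at lumbar level. It uses the *HOX11* to *HOX13* genes for sacral identity. The summed expression of the 3 *HOX10* genes was 0.943 TPM on average at P1, 12.6 at P2, 174 at P3 and 593 at P5. At P3 the *HOX10* sum was 119.9, 301.9 and 100.3 TPM in r1, r2 and r3, so that r1, low for *PRRX1*, was not the lowest for *HOX10*. The *HOX11* sum was 0.70, 32.74 and 2.96 TPM at P3 and 88.7, 276 and 118.5 TPM at P5. The *HOX12* sum was 0.10, 0.22 and 0.12 TPM at P3 and 1.07, 121.7 and 11.97 TPM at P5. The *HOX13* sum was 0.88, 46.77 and 1.41 TPM at P4, 111.8, 272.6 and 260.1 TPM at P8, and 688.8 and 339.8 TPM at P9. The other sacral sums did not rise with it on average. *HOX11* averaged 198.8 TPM at P8, 83.58 at P9 and 114.0 at P10, and *HOX12* 204.8, 155.8 and 166.5 TPM. Of the 12 *HOX10* to *HOX13* genes 0 were called between P8 and the late passages (median log2 change −0.26). Without P10.r1 1 was called, lower, and without P9.r1 0. From P3 to P5 r2 was the highest for each of these sums. Over the 47 libraries the gene whose pattern was most like *PRRX1* was *HOXA10* (Pearson r of log2 CPM = 0.967). Next was *Z97200.1*, a long intergenic non-coding RNA on the same strand within the span of *PRRX1* at chr1:170667381-170669425 (r = 0.957), then *ZNF629* (r = 0.954). These points share libraries and passages, and the coefficients are a description. Reads from *Z97200.1* and from unspliced *PRRX1* RNA cover the same bases. *Z97200.1* stayed at or under 3.27 TPM in every library.

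**Figure D2:**
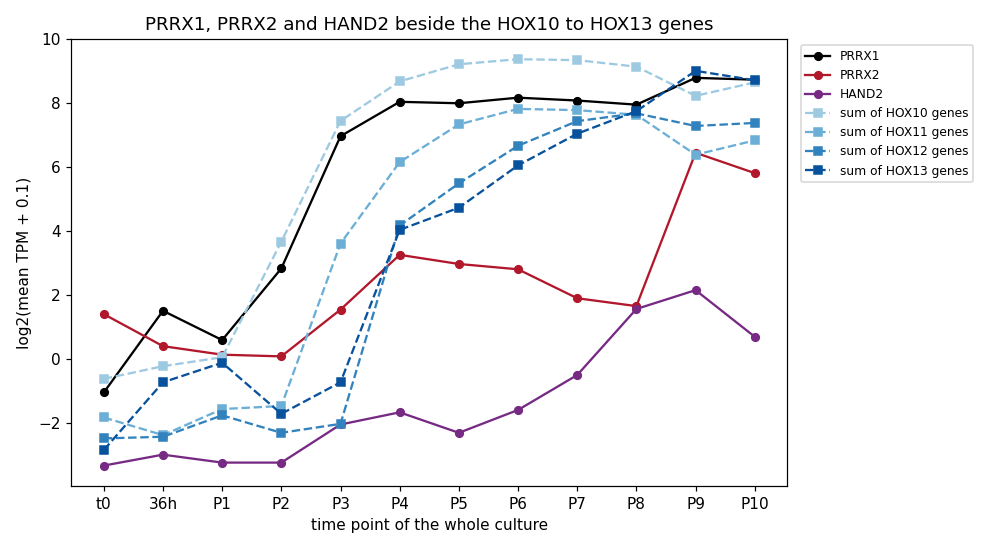
Mean expression of *PRRX1*, *PRRX2* and *HAND2* (solid lines) and of the summed *HOX10* to *HOX13* genes (dashed lines) in whole cultures from t0 to P10 on a log2(mean TPM + 0.1) axis, without error bars. *PRRX1* climbs with the *HOX10* sum between P1 and P4, whereas *PRRX2* stays under 10 TPM on average until P8 and climbs at P9.

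*PRRX2* (ENSG00000167157, chr9:129665641-129722674), the paralogue of *PRRX1*, took another course. It was already detected in hESCs, at 2.68, 1.94 and 3.04 TPM, and read 1.70, 0.61 and 1.37 TPM at 36h, where all libraries lay below all t0 libraries. The log2 difference of −1.08 (SE 0.99) was not called (adjusted p = 0.537). From P4 to P8 the differentiations separated and kept their order. At P5 *PRRX2* read 1.35, 3.74 and 18.19 TPM in r1, r2 and r3, at P7 0.67, 0.77 and 9.49 TPM, and at P8 0.57, 1.61 and 6.99 TPM. In each of these passages r3 was the highest and r1 the lowest.

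In the late passages *PRRX2* rose in most libraries. At P9 it read 136.43 and 38.06 TPM in r1 and r2, and at P10 0.57, 38.79 and 128.94 TPM in r1, r2 and r3. P10.r1 stood at the level of P8.r1, and the other late libraries were all above the highest P8 library. Mean normalized counts were 2127 in the 5 late libraries and 91.5 in the 3 P8 libraries, a 23.2-fold rise. In the blocked fit, where P9 and P10 weigh the same, the log2 change was 5.29 (SE 1.05, edgeR adjusted p = 0.00406). *PRRX2* was the 1 factor of 10 called in this comparison, beside 1.25% of all genes and 0.772% higher. Within r2 and r3 every late library was above its P8 library, while in r1 P9 was above and P10 level with it. Without P10.r1 the call held (log2 5.51, adjusted p = 8.63e-05) and *FOXF1* joined it, while the calls over all genes went from 271 to 1007. Without P9.r1, left out after seeing the data, the log2 change was 4.34 (adjusted p = 0.015) and *PRRX2* was not called. It was also not called without the replicate block, without replicate 2, without replicate 3 or with these groups alone.

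Summed markers of the main cell populations overlapped between P8 and the late passages, apart from NC markers at P9, which lay above all P8 libraries. Over 7 markers of PNPs the summed expression ran from 205 to 768 TPM at P8, 23.9 to 250.5 TPM at P9 and 51.4 to 487.6 TPM at P10. Of these 0 of 7 were called (median log2 change −3.31), 2 of 7 were called lower without P10.r1 and 0 without P9.r1. Over 12 NC markers it ran from 267 to 1075 TPM at P8, 1285 to 1336 TPM at P9 and 392 to 1192 TPM at P10. *SOX10*, a defining gene of migrating NC, stayed at or under 0.92 TPM at P9 and P10. Of the NC markers 0 of 12 were called between P8 and the late passages, and their median log2 change was −0.16 (−0.60 with groups at the floor set to it), over members that differed in both directions. Without P10.r1 5 of the 12 were called, *TFAP2A* (log2 4.23), *SNAI1* (3.68) and *TWIST1* (3.11) higher and *SOX9* (−2.78) and *FOXD3* (−3.56) lower, and without P9.r1 none was. The part of these populations in the late *PRRX2* result was not tested.

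The hindlimb factors were weakly expressed for most of the course. *TBX4* (ENSG00000121075, chr17:61452404-61485110), which with *PITX1* specifies hindlimb identity, had 3 counts or fewer in 32 of the 47 libraries. It read 0, 0.01 and 0.18 TPM at P8, then 4.16 and 0.19 TPM at P9 and 0.09, 0.50 and 2.38 TPM at P10. P9.r1 and P10.r3 were the high libraries, at 222 and 194 counts. P9.r2 and P10.r1, at 9 and 4 counts, lay within the range of the P8 counts, which were 0, 1 and 11. Mean normalized counts were 93.1 late and 4.12 at P8 (log2 5.30, SE 1.37, adjusted p = 0.0198), and *TBX4* was not called. Without P10.r1 the log2 change was 5.30 (adjusted p = 0.00722), past the adjusted threshold although not called for its low mean, and without P9.r1 it was 3.01 (adjusted p = 0.145).

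*PITX1* (ENSG00000069011, chr5:135027735-135034813), a homeobox gene upstream of *TBX4* in the hindlimb, had 0 counts in each of the 3 t0 libraries, which allows up to 3 counts in each. At 36h it had 0, 0 and 10 counts. At P1 it read 0, 2.25 and 1.28 TPM, with the r1 library again apart. Levels stayed at 1.68 TPM or less from P2 to P8. At P9 it read 4.46 and 0.32 TPM and at P10 0.42, 5.95 and 1.06 TPM, against 0.27, 0.41 and 0.04 TPM at P8, so that the groups overlapped. The late log2 difference of 4.00 (SE 1.29) was not called (adjusted p = 0.0499), without P10.r1 it was 4.15 (adjusted p = 0.0248), and without P9.r1 it was 1.71 (adjusted p = 0.404). High *PITX1* and high *TBX4* coincided in P9.r1. In P10.r2 *PITX1* was highest of all libraries while *TBX4* was at 0.50 TPM.

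The third hindlimb factor stayed near the floor. *ISL1* (ENSG00000016082, chr5:51383391-51394738), a LIM-homeobox gene needed at the onset of hindlimb growth, had 3 counts or fewer in 33 libraries and never passed 0.44 TPM, its level in P5 MES r2. At P9 and P10 it read 0 and 0.14 TPM and 0, 0 and 0.06 TPM, and it was not called in any comparison. *TBX5* (ENSG00000089225, chr12:114353931-114408442), the forelimb and heart counterpart of *TBX4*, did not pass 0.82 TPM, its level in P8 MES r2. From P7 to P10 it was over the floor in every whole-culture library of r2 and r3, with 10 to 40 counts, and at 0 in r1 apart from P9. Its highest whole-culture reading was 0.70 TPM in P9.r1, the library with the most *TBX4*. The antisense gene *TBX5-AS1* overlaps *TBX5*, and where the counting did not use strand, their reads cannot be told apart.

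**Figure D3:**
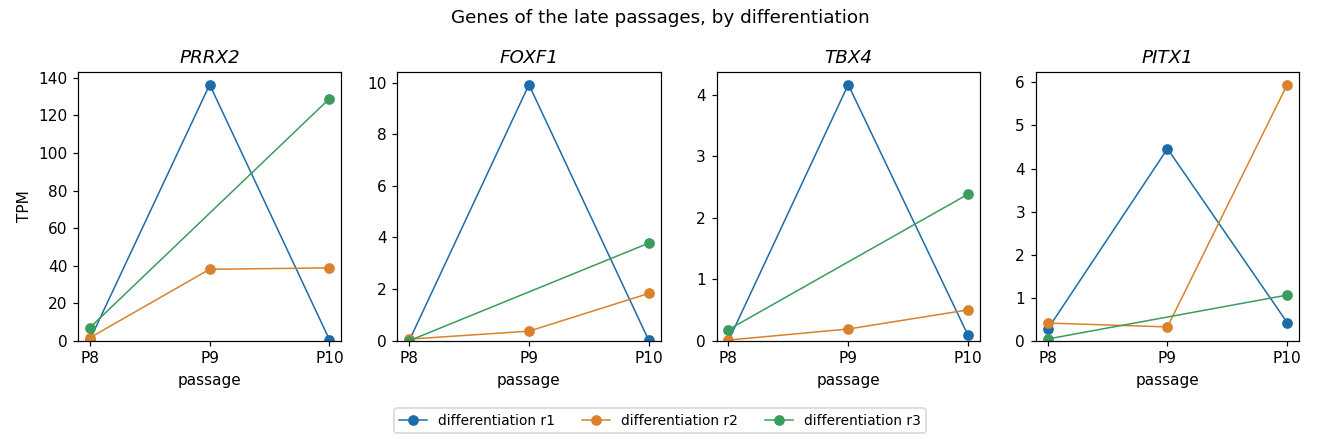
Expression in TPM (linear axis from 0, a scale of its own for each gene) of *PRRX2*, *FOXF1*, *TBX4* and *PITX1* at P8, P9 and P10, with lines joining libraries of the same differentiation. For r3 the line joins P8 to P10 directly. In r1 *PRRX2*, *FOXF1* and *TBX4* are high at P9 and within the P8 range at P10, in the library labelled P10.r1, whose nearest library over all genes is P7.r2.

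Of the lateral plate regulators, *FOXF1* (ENSG00000103241, chr16:86510527-86515418), a forkhead gene of splanchnic mesoderm, was seen at the beginning and the end. At 36h it read 0.03, 0.10 and 2.56 TPM, and at P1 0, 2.21 and 1.82 TPM. From P5 to P8 it had at most 6 counts in any whole-culture library. It then read 9.92 and 0.37 TPM at P9 and 0.02, 1.83 and 3.78 TPM at P10. All late libraries but P10.r1 were above the P8 libraries, whose counts were 0, 6 and 0. Mean normalized counts were 272 late and 1.73 at P8 (log2 7.45, SE 1.78), just outside the threshold (adjusted p = 0.0117). DESeq2 called it. Without P10.r1 it was called as well (log2 7.60, adjusted p = 0.00219), and without P9.r1 the log2 change was 4.95 (adjusted p = 0.0601). *FENDRR*, the non-coding gene that starts beside *FOXF1* on the other strand, had the pattern most like it (r = 0.836 over 47 libraries), with 3.94 TPM in P9.r1 and 0.30 TPM or less in every other library.

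*HAND1* (ENSG00000113196, chr5:154474972-154478264), a bHLH gene of heart, extraembryonic mesoderm and lateral plate, had its highest mean at P3. At 36h it was over 3 counts only in r3, at 1.44 TPM. It read 0.29, 3.21 and 5.47 TPM at P3 and 0.52, 0.25 and 3.43 TPM at P5, with r3 highest both times. At P8 all 3 libraries had 0 counts, which at this depth allows up to 3 counts in each. Against that floor mean normalized counts were at least 21.1-fold lower at P8 than at P5, and at least 5.79-fold lower without P5.r3 (chosen after seeing the data), which held most of the counts. The test did not call the difference (adjusted p = 0.0662). The P8 fractions of r3 were over the floor, with 17 counts in EPI and 29 in MES, unlike the whole culture. In the fractions mean normalized counts of *HAND1* at P8 were 0.234 of those at P5 in EPI and 0.115 in MES, smaller falls than in whole cultures. At P9 it read 0.46 and 1.21 TPM, and at P10 0, 0.06 and 0.09 TPM.

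*HAND2* (ENSG00000164107, chr4:173524969-173530229), a bHLH gene that acts in limb buds, heart and sympathetic neurons, was first over the floor in 36h.r3, with 7 counts, the library where *HAND1* first was. It was at 0 counts in all t0 libraries and at or under 0.44 TPM from 36h to P6. It read 0, 0.79 and 1.04 TPM at P7, 0.09, 4.99 and 3.52 TPM at P8, 6.89 and 1.83 TPM at P9, and 2.37, 1.81 and 0.40 TPM at P10. At P8 r2 and r3 were high and r1 was not, and at P9 r1 was high. In P10.r1 *HAND2* had 116 counts, the most of the P10 libraries, whereas *PRRX2* was lowest there, with 20 counts. Mean normalized counts went from 4.19 at P5 to 123 at P8, higher in 3 of 3 differentiations (log2 4.73, SE 1.33), which was not called (adjusted p = 0.111). In that comparison 0 of the 10 factors were called, beside 0.00920% of all genes, with 3 of 10 at an unadjusted p under 0.05 (2892 of 21750 genes) and 0 of 10 by DESeq2. Markers of amnion and surface ectoderm summed to 15.6 to 26.0 TPM at P5 and 59.2 to 205.5 TPM at P8, mainly *TFAP2C* and *GRHL3*. Of these 0 of 6 were called, and their part in the *HAND2* difference was not tested. The late *HAND2* difference from P8 had no settled sign. It was 0.65 on the log2 scale in the blocked test (SE 1.05, adjusted p = 0.755) and −0.22 without P9.r1, and mean normalized counts were 106 late and 123 at P8.

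The genes most like *HAND2* over the 47 libraries were *MIR181A1HG* (r = 0.891), *DLX6-AS1* (r = 0.889) and *HAND2-AS1* (r = 0.888), the last being the divergent transcript whose start lies in the upstream sequence given above. *HAND2-AS1* read 0.13, 1.67 and 0.88 TPM at P8 and 2.98 and 0.35 TPM at P9. As for *HAND2*, r1 was low at P8 and high at P9. The genes overlap, and the strand setting of the counting is not given in the sources used here. Markers of the sympathetic lineage, in which *HAND2* also acts, summed to 0.64 to 1.52 TPM over 7 genes at P8, and none of them averaged 1 TPM. At P9 their sum was 4.58 to 14.7 TPM, with *GATA2* as the largest part, and the part of such cells in the result was not tested.

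*OSR1* (ENSG00000143867, chr2:19351485-19358653), a zinc-finger gene of lateral plate and intermediate mesoderm, was called for change over time (adjusted p = 0.00112) and had 2 separate highs. At 36h it read 0.08, 0.14 and 2.18 TPM and at P1 0.40, 19.41 and 12.92 TPM. At P1 mean normalized counts were 576, against 2.34 at t0, where the libraries had 1, 5 and 1 counts. The ratio of means, 246-fold, is a rough description over a mean near the floor. It was 365-fold without P1.r1, left out after seeing the data, which lay far below the others. From P3 to P5 *OSR1* was low in all whole cultures, with at most 75 counts. It then read 1.24, 1.90 and 20.46 TPM at P7 and 3.66, 1.68 and 14.59 TPM at P8, with r3 by far the highest. At P9 and P10 it read 1.45 and 1.28 TPM and 1.32, 5.06 and 1.01 TPM. The P8 libraries were all above the P5 libraries (log2 3.15, SE 1.13, adjusted p = 0.203). *OSR1* was not called for change over time when any replicate was left out.

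The libraries 36h.r3, P1.r2 and P1.r3 shared 4 factors, with no test of P1 against other groups. In P1.r2 and P1.r3 *OSR1*, *FOXF1*, *HAND1* and *PITX1* all had 41 or more counts, while in P1.r1 *FOXF1*, *HAND1* and *PITX1* had 0 counts. Among the 36h libraries 36h.r3 was highest for *FOXF1*, *HAND1*, *OSR1* and *PITX1*, with 280, 76, 141 and 10 counts. It was also the highest for the mesoderm genes *TBX6* (224.73 TPM, against 35.79 and 6.00 TPM) and *GATA6* (33.09 TPM, against 8.98 and 0.03 TPM). Beyond P1 the order of the members was not shared: *HAND1* peaked at P3, *OSR1* at P1 and P7, and *TBX4* and *FOXF1* at P9.

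In the fractions, *PRRX2* was higher in mesenchymal than in epithelial cells in every pair. At P5 it read 0.85, 2.07 and 10.99 TPM in EPI and 2.92, 7.21 and 25.06 TPM in MES of r1, r2 and r3. At P8 it read 0.35, 1.31 and 11.50 TPM in EPI and 0.94, 3.59 and 23.39 TPM in MES. The differentiations differed more from each other than the fractions did, so the groups overlapped although 6 of 6 pairs pointed the same way. The log2 difference was 1.67 at P5 (SE 0.33, adjusted p = 0.0258) and 1.18 at P8 (SE 0.33, adjusted p = 0.296). In the main test 0 of 9 factors tested were called at either passage, beside 0.00% of 18885 genes each time. At P5 3 of the 9 factors and 4894 genes had an unadjusted p under 0.05, and at P8 2 factors and 2261 genes. DESeq2 called *PRRX2* at P5 (674 genes in all) and 0 factors at P8 (55 genes).

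*PRRX1* was abundant in both fractions. It read 180.15, 229.95 and 255.60 TPM in P5 EPI and 289.18, 368.29 and 375.54 TPM in P5 MES, and these groups did not overlap. The P5 difference was small but even, at 0.68 on the log2 scale (SE 0.12), and it stood below the 2-fold minimum and outside the adjusted threshold (adjusted p = 0.0196). At P8 EPI read 211.65, 236.31 and 374.14 TPM and MES 229.73, 288.86 and 380.33 TPM, with a log2 difference of 0.05 (SE 0.12, adjusted p = 0.9). The change of the difference between passages was −0.63 on the log2 scale (SE 0.17) and was not past the threshold (adjusted p = 0.816). In that interaction test 0 of 9 factors were called, beside 0.00% of all genes, with 1 factor and 1152 genes at an unadjusted p under 0.05, and DESeq2 called 0 factors.

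The remaining fraction differences involved weakly expressed factors. *HAND1* read 0.21, 0.12 and 1.35 TPM in P5 EPI and 2.17, 0.88 and 3.90 TPM in P5 MES, higher in MES in 3 of 3 pairs (log2 2.76, SE 0.73, adjusted p = 0.054). At P8 *HAND1* was at or near 0 in both fractions of r1 and r2. *OSR1* read 1.49, 1.22 and 3.27 TPM in P8 EPI and 17.23, 3.74 and 6.43 TPM in P8 MES, so that every MES library lay above every EPI library (log2 2.11, SE 0.78, adjusted p = 0.364). *HAND2* did not separate by fraction at P8, with 0.26, 4.01 and 3.50 TPM in EPI and 0.09, 6.32 and 3.35 TPM in MES (log2 0.05, SE 0.65). *TBX4*, *PITX1*, *ISL1*, *TBX5* and *FOXF1* stayed at or under 1.19 TPM in all 12 fraction libraries, and *FOXF1* was too low to be tested there.

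In summed expression the mesenchymal fraction was also the richer in NC markers and the poorer in PNP markers at P5. Of single markers 0 of 12 and 0 of 7 were called there, with median log2 differences of 1.72 and −1.74. That test called 0.00% of all 18885 genes, so the absence of calls is not a result about these markers. The paper, which used DESeq2 at similar thresholds, reports NC genes such as *SNAI1*, *SOX9* and *SOX10* as significantly higher in P5 mesenchymal cells. Over 12 NC genes the summed expression ran from 195 to 391 TPM in P5 EPI and from 601 to 779 TPM in P5 MES. At P8 the ranges were 226 to 1027 TPM in EPI and 456 to 1405 TPM in MES. *TWIST1*, an NC and mesenchyme gene, read 30.01, 62.58 and 135.62 TPM in P5 EPI and 300.70, 200.29 and 275.87 TPM in P5 MES. *SOX10* read 0.54, 0.83 and 2.49 TPM in P5 EPI and 3.69, 7.67 and 24.05 TPM in P5 MES. Summed PNP markers ran from 518 to 877 TPM in P5 EPI and from 108 to 398 TPM in P5 MES. The part of these cells in the differences of *PRRX1*, *PRRX2* and *HAND1* was not tested.

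**Figure D4:**
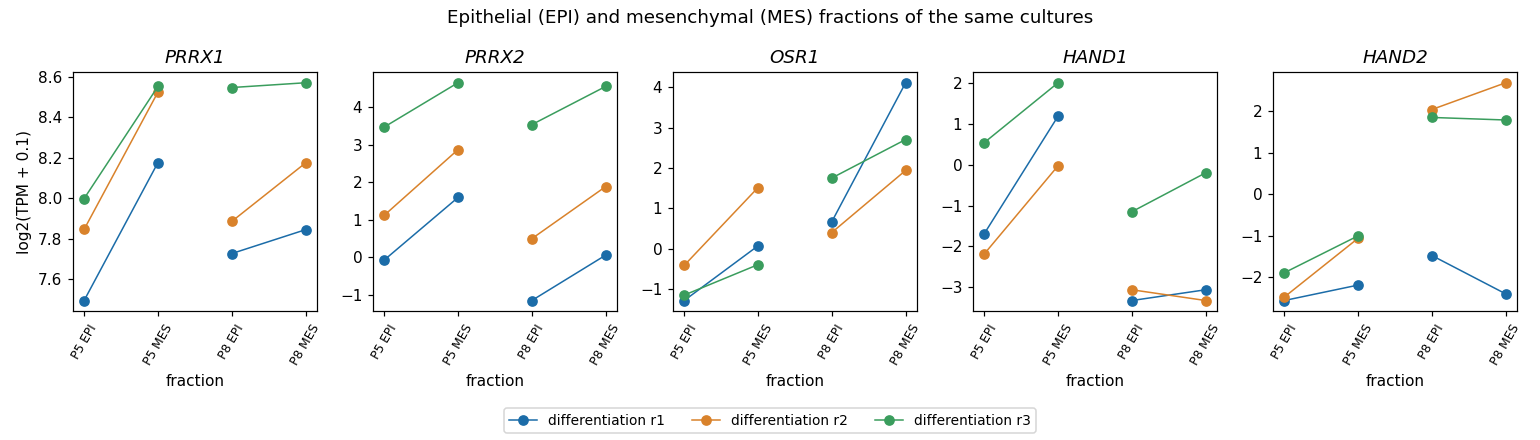
Expression of *PRRX1*, *PRRX2*, *OSR1*, *HAND1* and *HAND2* in epithelial (EPI) and mesenchymal (MES) fractions at P5 and P8 on a log2(TPM + 0.1) axis, with a scale of its own for each gene. Lines join fractions of the same differentiation, and *PRRX2* and *OSR1* are higher in MES than in EPI in all 6 pairs.

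Between P5 and P8 the *HAND* genes differed in opposite directions on average in both fractions. *HAND2* read 0.12, 0.38 and 0.40 TPM in P5 MES and 0.09, 6.32 and 3.35 TPM in P8 MES (log2 3.15, SE 0.73, adjusted p = 0.032). *HAND1*, with the P5 values given above, read 0.02, 0 and 0.77 TPM in P8 MES (log2 −4.19, SE 0.84, adjusted p = 0.0211). In the epithelial fraction *HAND2* read 0.07, 0.08 and 0.17 TPM at P5 and 0.26, 4.01 and 3.50 TPM at P8 (log2 4.86, SE 0.84, adjusted p = 0.0192). *HAND1* read 0.21, 0.12 and 1.35 TPM at P5 and 0, 0.02 and 0.35 TPM at P8 there, lower in 3 of 3 pairs (log2 −2.32, SE 0.88, adjusted p = 0.116). In r1 the *HAND2* level was low in all 4 fraction libraries. Without replicate 1 *HAND2* was called between the MES fractions (log2 3.66, adjusted p = 0.00962), and the calls over all genes in that fit are not given here. None of these values passed the threshold in the main test: 0 of 9 factors were called in MES, beside 0.699% of all genes, and 0 of 9 in EPI, beside 0.259%. At an unadjusted p under 0.05 there were 7 of 9 factors and 5882 genes in MES, and 5 of 9 factors and 5918 genes in EPI. DESeq2 called *OSR1* between the MES fractions, where it read 0.95, 2.76 and 0.66 TPM at P5 and 17.23, 3.74 and 6.43 TPM at P8, and no factor between the EPI fractions.

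Other genes of the limb bud also changed. At 36h 3 of 19 limb bud genes were called higher than at t0 and 0 lower, beside 2.71% of all genes in either direction. Among them were the homeobox genes *MSX1* and *MSX2*, with log2 changes of 7.21 and 4.52. Also called higher were 2 of 6 primitive streak, 2 of 11 paraxial mesoderm and 2 of 12 lateral plate and heart genes. So were 2 of 7 PNP and 1 of 12 NC markers, and 1 neuron and 1 amnion marker were called lower. Their part in the limb bud calls was not tested. Of 19 limb bud genes 6 were called higher at P3 than at 36h and none lower, beside 2.88% of all genes higher, with a median log2 change of 1.32 beside −0.02 over all genes (1.48 beside −0.07 with groups at the floor set to it). In the same comparison 3 of 12 NC markers were called higher (median log2 change 1.19) and 1 of 11 paraxial mesoderm genes (median 3.00), and their part in the limb bud changes was not tested. Without P3.r1 the limb bud count was again 6 of 19 and the NC count 3 of 12, while the paraxial median was 1.02 over the 10 genes then tested, with 1 called. The calls over all genes without P3.r1 are not given here. *LMX1B*, which patterns the dorsal limb, rose by 8.44 on the log2 scale (SE 1.22, adjusted p = 2.44e-05), *ALX4*, a gene of the anterior limb margin, by 7.44 (SE 1.67, adjusted p = 0.00172), and *GREM1*, a BMP antagonist of the posterior limb bud, by 6.43 (SE 0.82, adjusted p = 5.71e-06). *LIX1* rose by 3.18. *GREM1* read 77.08, 87.54 and 72.02 TPM at P3, with r1 alongside the others. *LMX1B* read 1.13, 41.43 and 60.85 TPM, with r1 low as for *PRRX1*. Without P3.r1 these 4 genes were called as well, with log2 changes of 9.03 for *LMX1B*, 8.12 for *ALX4*, 6.49 for *GREM1* and 3.41 for *LIX1*.

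In the late passages 1 of the 19 limb bud genes was called, beside 1.25% of all genes and 0.772% higher. Without P10.r1 it was 5 of 19, beside 1007 of all genes, and without P9.r1 it was 1. With groups at the floor set to it, their median log2 change was 1.23, beside 1.71 for the 10 factors and 0.03 over all genes. As fitted, without that floor, the medians were 1.568 for the limb bud genes and 2.465 for the 10 factors. Without P10.r1 they were 1.596 and 2.584. Without P9.r1 they were 1.593 and 1.3, so the order of these sets depended on that library. *MSX2*, a homeobox gene that answers to BMP in limb bud and NC alike, read 13.10, 19.34 and 22.64 TPM at P8, 438.71 and 262.25 TPM at P9, and 27.50, 315.64 and 511.53 TPM at P10 (log2 4.34, SE 0.77, adjusted p = 0.00227). *MSX2* was also called without P10.r1 (log2 4.58) and without P9.r1 (log2 3.75). P10.r1 was far below the other late libraries, as for *PRRX2*. *LHX2*, among the genes most like *TBX4* (r = 0.839), read 438.31 and 64.71 TPM at P9 and 39.49, 189.62 and 363.11 TPM at P10 (log2 3.86, adjusted p = 0.0111). It was called without P10.r1 (log2 4.00, adjusted p = 0.00278) and not without P9.r1 (log2 2.58, adjusted p = 0.057). The T-box gene *TBX3* (log2 6.72) and the LIM-homeobox gene *LHX9* (log2 5.69) were called higher without P10.r1, with adjusted p of 0.0133 and 0.0155 when it was included, and of 0.0285 and 0.0716 without P9.r1, where the log2 changes were 6.17 and 3.76. *GREM1*, which rose by P3, went the other way, with 189.70, 239.99 and 77.04 TPM at P8, 46.97 and 41.90 TPM at P9, and 70.49, 2.66 and 32.25 TPM at P10. All its late libraries lay below all P8 libraries (log2 −2.11, adjusted p = 0.0223), and it was called lower without P10.r1 (log2 −2.55, adjusted p = 0.00276). Without P9.r1 it was not called (log2 −2.11, adjusted p = 0.0702). *PRRX2* itself was the second gene most like *TBX4* (r = 0.846). *TWIST1* was also lowest in P10.r1 among the late libraries, at 459.79 and 528.07 TPM at P9 and 66.39, 489.10 and 411.46 TPM at P10, against 131.26 TPM or less at P8 (log2 3.01, adjusted p = 0.0165, with 0.00673 without P10.r1 and 0.0598 without P9.r1).

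Other early lateral plate and cardiac genes moved in both directions after 36h. Of 15 such genes 12 were tested, and between 36h and P3 3 were called lower and 1 higher, beside 6.93% of all genes in either direction and 2.88% higher, with a median log2 change of 1.11 (0.41 with groups at the floor set to it). *GATA6*, *GATA4* and *KDR*, genes of cardiac and vascular precursors, had log2 changes of −7.73, −8.30 and −6.91, and of −8.46, −9.55 and −7.08 without P3.r1, all called. *KDR* already averaged 45.2 TPM in hESCs at t0, against 56.1 TPM at 36h, so its fall was not from a level particular to 36h. *GATA6* was at 0 TPM in all P8 libraries and at most 0.22 TPM at P9. *GATA4* was at 0.02 TPM or less at P9 and P10, and *KDR* read 6.35 and 10.93 TPM at P9 (log2 difference of late passages from P8 3.75, adjusted p = 0.0153, and 4.01 with adjusted p = 0.00227 without P10.r1, and 0.021 without P9.r1). *BMP4*, a ligand of lateral plate, dorsal neural tube and NC, was the gene that rose, from 4.66, 7.38 and 11.22 TPM at 36h to 25.59, 325.22 and 346.70 TPM at P3 (log2 4.56, adjusted p = 9.4e-06, and 5.07 without P3.r1). In the late passages 0 of the 12 were called against P8 (median log2 change 0.66). Without P10.r1 3 were called, *KDR* and *TBX18* (log2 3.33) higher and *NKX3-2* (log2 −1.32) lower, and without P9.r1 0. Paraxial mesoderm genes summed to 18.6 TPM or less over 11 genes in every P8, P9 and P10 library, and 0 of them were called between P8 and the late passages.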

How the data were processed

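Bulk polyA RNA-seq was analysed in 47 libraries, 35 of whole cultures and 12 of fractions. The submitters' processing notes name cutadapt 1.16, STAR 2.5.2b, RSEM 1.3.0 and GRCh38. The authors deposited expected counts, which RSEM estimates per gene (9.3% of values not whole), and TPM, which RSEM derives from them by effective length. Symbols and positions came from GENCODE 29 (57447 of 58051 identifiers). Expected counts were rounded and tested in edgeR 4.0.16 (R 4.3.3, TMM, filterByExpr, glmQLFTest), with one fit of the whole cultures (21750 genes, residual df 21) and one of the fractions (18885 genes, residual df 6). DESeq2 was an alternative. The replicate number was a block, because the series describes each experiment as holding all time points. Deviations from group means correlated at 0.139 on average between same-numbered whole cultures (−0.069 for other numbers) and at 0.422 between fractions (−0.207). Subtracting group means makes the values for other numbers negative where the same-numbered ones are positive, so they are not a separate baseline. Of the same-numbered pairs 44.9% of whole cultures correlated over 0.1 (lowest −0.193), and 100% of fractions (lowest 0.122). Normalized counts are counts divided by TMM size factors. All replicates differed by more than sampling noise, and on counts simulated for the late comparison (21750 genes) the test recovered 2 of 50 genes changed 2-fold, 42 of 50 changed 4-fold and 50 of 50 changed 8-fold. On counts simulated for P5 MES against EPI (18885 genes) it recovered 11 of 50 changed 2-fold and 50 of 50 changed 4-fold. These rates describe the simulated counts and do not give the power for the members, whose spread can be larger. In the late comparison *FOXF1* differed 157-fold in mean normalized counts (SE 1.78 on the log2 scale) and was not called in the main test. The members and gene lists were chosen with earlier results of these data known. Named genes are the members, up to 4 called genes of each list and the 3 genes most like each member. *LHX2*, *TBX6*, *MEOX1*, *TWIST1*, *SOX10*, *KDR*, *GATA2*, *TBX3*, *LHX9*, *TFAP2A*, *SNAI1*, *SOX9*, *FOXD3*, *TBX18* and *NKX3-2* at the libraries named were chosen after their values were seen. Floors cover counting error only.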

Additional observations from a re-analysis of the deposited data

How the results depend on the processing

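The number of factors called changed with the setting in 6 of the 11 comparisons, and the cause was not tested. The calls over all genes change with the setting too. Where they are not given beside a count of factors, that count does not set the factors apart from other genes. For 36h against t0 the number of factors called went from 0 to 1 (*PRRX1*) at an FDR under 0.05, with DESeq2 and with all 47 libraries in the fit. For P3 against 36h it went from 1 to 0 with the compared groups alone, which leaves fewer libraries. For late passages against P8 it went from 1 to 0 without P9 replicate 1 (chosen after seeing the data) and with the compared groups alone, and to 2 (*PRRX2* and *FOXF1*) at an FDR under 0.05, with DESeq2, with all 47 libraries and without P10 replicate 1. For any change over time it went from 3 to 8 with no mean minimum, while the calls over all genes went from 5969 to 9590. For P5 MES against EPI it went from 0 to 1 (*PRRX2*) at an FDR under 0.05 and with DESeq2, and for P8 against P5 MES from 0 to 1 (*OSR1*) with DESeq2. Leaving out each replicate number in turn gave 0 to 1 factors for 36h against t0, P3 against 36h, late against P8 and P8 against P5 MES, and 2 for any change. Without the replicate block the late count was 0, and the genes called there fell from 271 to 37. The block changed no other count of factors. Over all genes DESeq2 called 740 late and 58 against 3 for P5 against P3, 155 against 2 for P8 against P5, 674 and 55 against 0 and 0 for MES against EPI at P5 and P8, and 751 and 606 against 132 and 49 for P8 against P5 in MES and EPI. Of 33 differences of single factors with an unadjusted p under 0.05, 32 kept their direction in every setting run. *HAND1* at 36h reversed without replicate 3, from a log2 change of 3.65 to −0.50, and stood at 5.14 without replicate 2. Factors under about 10 counts are at the limit of this depth.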
